A study of Mus musculus with 9 samples.

Results

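The genes described are 9 of the 16698 in the deposited table: the nicotinamide riboside kinases Nmrk1 and Nmrk2, the nicotinamide phosphoribosyltransferase Nampt, the nicotinate phosphoribosyltransferase Naprt, the NMN adenylyl transferase genes Nmnat1 and Nmnat3, the NAD kinase Nadk, and the sirtuins Sirt1 and Sirt3. They were taken by symbol, as genes of NAD synthesis, phosphorylation and use around Nmrk2, and the set was chosen by the rise of Nmrk2 in these libraries, one of the largest of all genes after TAC. The values of Nmrk2 are therefore given as a description with no test, and only the other 8 members were tested. All 9 members passed the filter on low values, with a log2 value above 0 in at least 3 libraries.

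NAD carries electrons in fuel oxidation and is also used up as a substrate by sirtuins, poly(ADP-ribose) polymerases and the ectoenzyme Cd38, so cells must keep rebuilding it. NAMPT recycles nicotinamide to nicotinamide mononucleotide, NMRK1 and NMRK2 make the same mononucleotide by phosphorylating nicotinamide riboside, and NAPRT opens the route from nicotinic acid. NMNAT enzymes then join the mononucleotide to ATP to give NAD. NMRK1 is made in many tissues, whereas NMRK2 is known as a kinase of striated muscle. In adult heart the NAMPT route is held to be the main source of NAD.

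Left ventricles of ICR/CD1 mice, an outbred strain, were collected when the animals were 14 days old. Transverse aortic constriction (TAC) narrows the aortic arch and loads the left ventricle with pressure. It was done on day 1 of life in 3 libraries (day-1 TAC) and on day 7 in 3 libraries (day-7 TAC), and 3 libraries came from sham surgery, for which the labels give no day. The TAC groups therefore differed both in age at surgery and in time under load. Sham libraries serve in both comparisons with TAC, so those 2 comparisons are not independent of each other.

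Depth ran from 18535202 to 26521005 reads per library, if the lowest value of a library stands for 1 read. Ventricular cardiomyocyte markers were the highest of the marker lists in every group, with summed linear levels of 79000 to 126000. Atrial markers summed to 139 to 441; of these Myl4 had 1122 to 5055 reads and Bmp10 at most 16. Day-1 TAC replicate 3 stood apart by 10532 Xist reads against 7 to 40 in the other libraries, and day-1 TAC replicate 1 had the lowest mean correlation with its own group across genes (0.979). Nothing in the labels ties libraries to separate animals, so each p-value speaks of the spread among the libraries alone.

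Nmrk2, whose product is the muscle form of the riboside kinase, was low in sham hearts and much higher after TAC. Its deposited log2 values were 0.14, 0.75 and 0.64 in the sham libraries, from 22 to 43 reads. They were 4.22, 4.45 and 3.78 after day-7 TAC, from 289 to 447 reads. After day-1 TAC they reached 6.96, 5.32 and 6.12, from 811 to 2621 reads. The 3 groups did not overlap, and all day-1 TAC libraries lay above all day-7 TAC libraries. In whole ventricle, fewer cells of a type and less RNA per cell cannot be told apart, for Nmrk2 as for every gene below.

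As log2 differences, Nmrk2 stood 5.63 (SE 0.35) above sham after day-1 TAC, a 49.4-fold higher level, and 3.64 (SE 0.35) above sham after day-7 TAC, or 12.5-fold. Day-1 TAC exceeded day-7 TAC by 1.98 (SE 0.35), or 3.96-fold. With a pseudocount of 1 on the linear scale, which draws in low values, the rises from sham were 4.87 (29.3-fold) and 2.95 (7.72-fold). Only 1 of 13712 genes tested had a larger rise after day-1 TAC, while Nmrk2 ranked 18th after day-7 TAC and 30th between the TAC groups. Its place among the deposited values of all tested genes moved accordingly: 4.27% to 8.43% of genes had lower values in the sham libraries, 39.4% to 49.8% after day-7 TAC and 66.7% to 89.8% after day-1 TAC. These values are not per length, so the places compare groups and do not rank Nmrk2 by level against other genes. The day-1 TAC libraries spread most, with an SD of 0.82 against 0.33 in sham and 0.34 after day-7 TAC. Without day-1 TAC replicate 1, the highest library, the difference from sham was 5.21, and leaving out any single library kept it between 5.21 and 6.03.

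**Figure D1:**
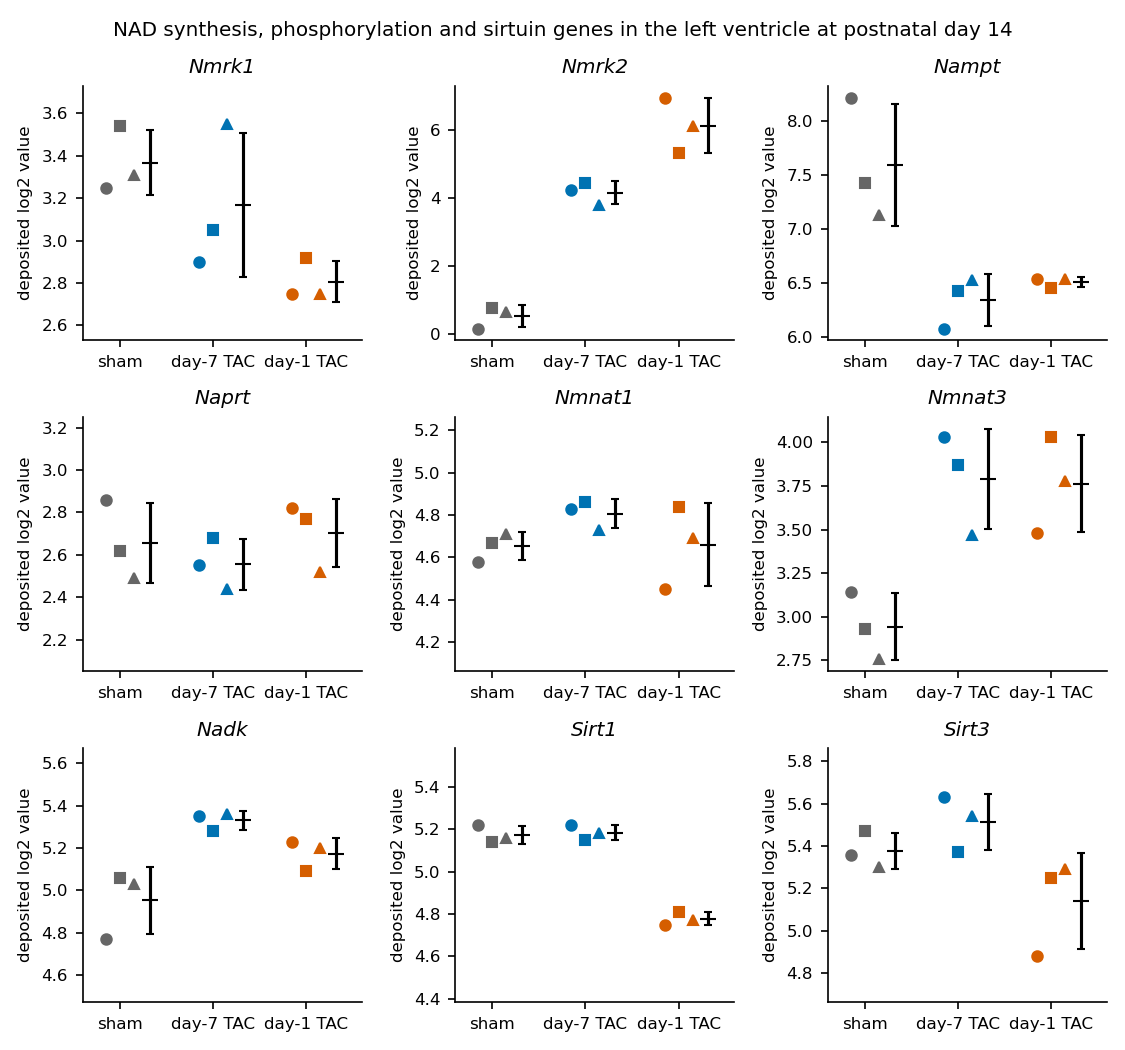
Deposited log2 value (vertical axis, own scale in each panel) of the 9 members in each library, by group; circles, squares and triangles are replicates 1, 2 and 3, and the black mark gives the mean ± SD of 3 libraries. Nmrk2 climbed from sham (0.14 to 0.75) through day-7 TAC (3.78 to 4.45) to day-1 TAC (5.32 to 6.96), Nampt lay lower in all TAC libraries than in sham, and Sirt1 lay lower only after day-1 TAC.

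Nmrk2 is a short gene on the minus strand of chromosome 10 (81198170 to 81202051, GRCm38), and Nmrk1 lies on the plus strand of chromosome 19 (18631950 to 18652428). The stretches just upstream of both kinase genes are shown because these genes serve the same reaction and stood in opposite directions after day-1 TAC. They are RefSeq promoter sequence of build GRCm38.p6, ending at the base before the annotated gene start, with every match to an E-box (CANNTG, which reads the same on both strands) and to a TATA box (TATAAA, either strand) in capitals.
Nmrk2, chr10:81202052-81202287, minus strand: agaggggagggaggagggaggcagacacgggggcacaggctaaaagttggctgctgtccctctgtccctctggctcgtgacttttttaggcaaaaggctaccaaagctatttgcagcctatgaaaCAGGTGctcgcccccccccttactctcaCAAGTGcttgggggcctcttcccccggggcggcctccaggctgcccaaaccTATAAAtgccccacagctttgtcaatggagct
Nmrk1, chr19:18631766-18631949, plus strand: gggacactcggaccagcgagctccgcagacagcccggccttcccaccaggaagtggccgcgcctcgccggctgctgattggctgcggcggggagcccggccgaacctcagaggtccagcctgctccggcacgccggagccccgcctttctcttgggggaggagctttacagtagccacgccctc
Upstream of Nmrk2 stand 2 E-boxes and 1 TATA box, and upstream of Nmrk1 neither motif was found. Of 32851 RefSeq promoter windows of 300 bases, 72.3% hold an E-box and 13.6% hold TATAAA, so the E-boxes are common letters and the TATA box a less common one. The M-CAT motif CATTCC, the GATA motif AGATAA, the CArG box and the MEF2 motif, searched on both strands, had no match in the window of either gene; they occur in 14.7%, 11.2%, 1.63% and 3.19% of all windows. The window of Nmrk1 holds 23 CpG dinucleotides and that of Nmrk2 holds 8, and 78.5% and 51.4% of windows have fewer. These matches describe the letters and not a bound site.

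The transcribed strand matters for reading Nmrk2, because the antisense gene Atcayos (81194609 to 81210877, plus strand) spans it. Whether reads were counted by strand is not given in the sources used here, so reads of the 2 genes where they overlap cannot be told apart with certainty. The same holds for Atcayos and Atcay (81204508 to 81230833, minus strand), whose spans overlap too. Atcayos had log2 values of 6.79, 6.85 and 6.54 in sham, 7.56, 7.62 and 7.77 after day-7 TAC, and 6.14, 6.62 and 6.77 after day-1 TAC. It rose after day-7 TAC by 0.93 (SE 0.15, adjusted p = 0.00159) and was lower after TAC on day 1 than on day 7 (-1.15, SE 0.15, adjusted p = 0.00159), whereas Nmrk2 was highest after day-1 TAC. Atcay, the nearest gene at higher coordinates, 2457 bases from Nmrk2, likewise rose after day-7 TAC by 1.07 (SE 0.22, adjusted p = 0.00557) and stood at -0.05 after day-1 TAC (adjusted p = 0.881). Dapk3, a protein kinase gene 4973 bases away on the other side, was higher by 0.30 (SE 0.10, adjusted p = 0.0374) after day-1 TAC; that call was lost when any one of sham replicates 2 or 3, day-7 TAC replicate 2, or day-1 TAC replicates 1 or 3 was left out. None of these 3 genes had the order of Nmrk2, with sham lowest and day-1 TAC highest and day-7 TAC between.

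**Figure D2:**
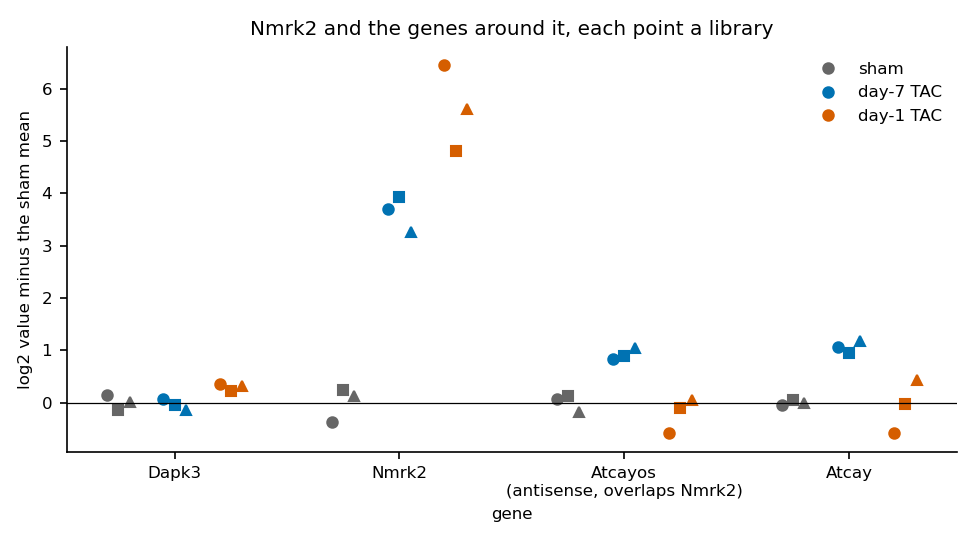
Log2 value of each library minus the sham mean of that gene (vertical axis) for Nmrk2, the nearest gene on each side and the antisense gene that overlaps it; circles, squares and triangles are replicates 1, 2 and 3, coloured by group. Nmrk2 stands on average 3.64 (day-7 TAC) and 5.63 (day-1 TAC) above sham, while Atcayos and Atcay are raised after day-7 TAC and near sham after day-1 TAC.

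Nmrk1, the kinase of many tissues, was lower after day-1 TAC than with sham. Its log2 values were 3.25, 3.54 and 3.31 in sham, 2.90, 3.05 and 3.55 after day-7 TAC, and 2.75, 2.92 and 2.75 after day-1 TAC. Every day-1 TAC library lay below every sham library, and day-7 TAC overlapped sham because its replicate 3 was as high as the highest sham library. Nmrk1 fell after day-1 TAC by 0.56 on the log2 scale (SE 0.17, adjusted p = 0.0265). The call did not hold without sham replicate 2 (-0.47, adjusted p = 0.10), without day-1 TAC replicate 1 (-0.53, 0.0685), without day-1 TAC replicate 3 (-0.53, 0.0679), or with libraries scaled to the same sum (-0.46, 0.0617). The differences of day-7 TAC from sham (-0.20, adjusted p = 0.403) and of day-1 from day-7 TAC (-0.36, adjusted p = 0.164) missed the threshold.

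Nampt, the gene of the recycling enzyme, fell with both TAC schedules. Its log2 values were 8.22, 7.43 and 7.13 in sham, 6.08, 6.43 and 6.53 after day-7 TAC, and 6.54, 6.46 and 6.54 after day-1 TAC. All 6 TAC libraries lay below the lowest sham library, and sham replicate 1 lay well above the other 2. The log2 difference from sham was -1.08 (SE 0.22, adjusted p = 0.0048) after day-1 TAC, a 2.12-fold lower level, and -1.24 (SE 0.22, adjusted p = 0.00302) after day-7 TAC, or 2.37-fold lower. Without sham replicate 1 the differences were smaller, at -0.77 (adjusted p = 0.00402) and -0.93 (adjusted p = 0.00239). The TAC groups differed from each other by 0.16 (SE 0.22, adjusted p = 0.659), and the day-1 TAC libraries were the tightest of all, with an SD of 0.05 against 0.56 in sham.

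Naprt, which starts NAD synthesis from nicotinic acid, was low and had overlapping groups throughout. Sham libraries were at 2.86, 2.62 and 2.49, day-7 TAC at 2.55, 2.68 and 2.44, and day-1 TAC at 2.82, 2.77 and 2.52 on the log2 scale. Its differences were 0.05 (SE 0.15, adjusted p = 0.815) after day-1 TAC and -0.10 (SE 0.15, adjusted p = 0.637) after day-7 TAC. The gene span of Naprt overlaps that of Eef1d on the same strand, and whether their exons overlap was not examined. If they do, reads of the shared part could have been given to either gene.

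Levels of different genes can be set beside each other only per length, so each linear value was divided by the gene's exon length in kb. Nampt had 59.0, 34.1 and 27.8 per kb in the sham libraries, where Nmrk2 had 0.592, 0.906 and 0.842. After day-1 TAC the order turned: Nmrk2 had 67.3, 21.5 and 37.6 per kb and Nampt 18.4, 17.4 and 18.4. The ratio of Nmrk2 to Nampt, as a geometric mean, was 0.0201 in sham, 0.594 after day-7 TAC and 2.10 after day-1 TAC, and it was above 1 in each of the 3 day-1 TAC libraries (1.24 to 3.67) and in none of the others (at most 0.751). With the longest transcript as the length it was 1.88 after day-1 TAC.

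Among the 4 genes whose enzymes begin NAD synthesis from a vitamin form, Nampt held 82.4% to 90.4% of the summed level per kb in sham and Nmrk2 0.908% to 2.50%. After day-7 TAC the shares were 47.9% to 58.7% for Nampt and 23.7% to 36.0% for Nmrk2. After day-1 TAC Nmrk2 held the largest share in every library, 49.0% to 74.4%, against 20.3% to 39.6% for Nampt. The kinase pair changed order too: Nmrk2 stood at 0.274 of Nmrk1 in sham, at 3.94 times Nmrk1 after day-7 TAC and at 20 times after day-1 TAC. That last ratio depends on the length taken for Nmrk1, since its longest transcript gave 0.144, 2.07 and 10.5. These are shares of messenger RNA and say nothing of enzyme amount or of NAD, which the files do not measure.

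**Figure D3:**
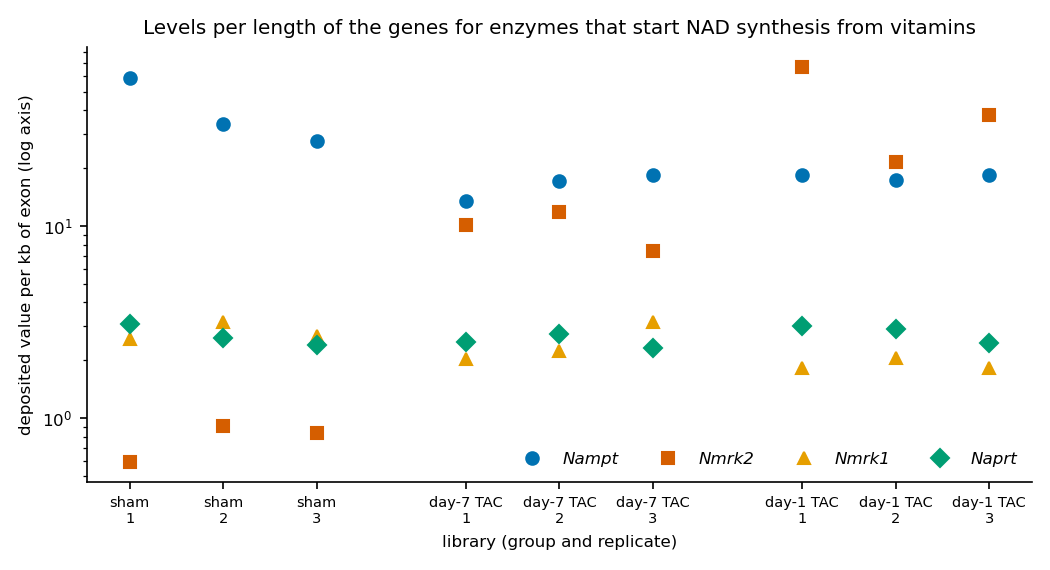
Deposited linear value per kb of exon (vertical log axis) of Nampt, Nmrk2, Nmrk1 and Naprt in each of the 9 libraries (horizontal axis), each point one library. Nmrk2 lies below the other 3 genes in sham (0.592 to 0.906), between Nampt and Nmrk1 after day-7 TAC, and above Nampt in all 3 day-1 TAC libraries.

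Of the adenylyl transferases that complete NAD, Nmnat3, described as the mitochondrial form, rose and Nmnat1, the nuclear form, did not pass the test. Nmnat3 had log2 values of 3.14, 2.93 and 2.76 in sham, 4.03, 3.87 and 3.47 after day-7 TAC, and 3.48, 4.03 and 3.78 after day-1 TAC. All TAC libraries were above all sham libraries, and the TAC groups overlapped each other. Nmnat3 rose by 0.82 (SE 0.18, adjusted p = 0.00649) after day-1 TAC and by 0.85 (SE 0.18, adjusted p = 0.00686) after day-7 TAC, or 1.77-fold and 1.80-fold. Between the TAC groups its difference was -0.03 (SE 0.18, adjusted p = 0.943).

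Nmnat1 varied little, at 4.58, 4.67 and 4.71 in sham, 4.83, 4.86 and 4.73 after day-7 TAC, and 4.45, 4.84 and 4.69 after day-1 TAC on the log2 scale. The day-7 TAC libraries lay just above sham (0.15, SE 0.10, adjusted p = 0.282), and day-1 TAC straddled it (0.01, SE 0.10, adjusted p = 0.958). Per kb of exon, Nmnat1 (7.21 to 9.56 over all libraries) was above Nmnat3 (1.35 to 3.27) in each library.

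Nadk, the cytosolic kinase that turns NAD into NADP, rose after day-7 TAC. Log2 values were 4.77, 5.06 and 5.03 in sham, 5.35, 5.28 and 5.36 after day-7 TAC, and 5.23, 5.09 and 5.20 after day-1 TAC. Both TAC groups lay above all sham libraries, day-7 TAC by more. The rise was 0.38 (SE 0.09, adjusted p = 0.0116) after day-7 TAC, while the day-1 TAC difference of 0.22 (SE 0.09, adjusted p = 0.0821) missed the threshold on the deposited scale and passed it with libraries scaled to the same sum (0.32, adjusted p = 0.0284), by the median of ratios (0.26, 0.0455) or by quantiles (0.27, 0.046). Day-1 and day-7 TAC differed by -0.16 (SE 0.09, adjusted p = 0.255), so a difference between the schedules was not shown. Nadk2, the mitochondrial NAD kinase and no member here, went the other way: from 6.67, 6.82 and 6.67 in sham to 5.89, 5.95 and 5.90 after day-7 TAC and 5.22, 5.68 and 5.59 after day-1 TAC. Nadk2 fell, with log2 differences of -1.22 (SE 0.11, adjusted p = 9.2e-05) after day-1 TAC and -0.81 (SE 0.11, adjusted p = 0.000671) after day-7 TAC.

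Sirt1, a nuclear deacetylase that uses NAD, separated the TAC groups. It stood at 5.22, 5.14 and 5.16 in sham and at 5.22, 5.15 and 5.18 after day-7 TAC, and at 4.75, 4.81 and 4.77 after day-1 TAC on the log2 scale. Each day-1 TAC library was below each of the other 6, and the SD within a group was at most 0.04. Its day-1 TAC difference was -0.39 from sham (SE 0.07, adjusted p = 0.00194) and -0.41 from day-7 TAC (SE 0.07, adjusted p = 0.00486), that is 1.31-fold and 1.32-fold lower. The difference of day-7 TAC from sham was 0.01 (SE 0.07, adjusted p = 0.919). Of the 8 tested members only Sirt1 had a called difference between the TAC groups on the deposited scale, and it kept that call in every alternative that was run.

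Sirt3, the main deacetylase of mitochondria, had lower values after day-1 TAC that did not pass the test. They were 5.36, 5.47 and 5.30 in sham, 5.63, 5.37 and 5.54 after day-7 TAC, and 4.88, 5.25 and 5.29 after day-1 TAC on the log2 scale. The day-1 TAC libraries lay below the other groups, replicate 1 by far the most. The difference was -0.24 (SE 0.12, adjusted p = 0.132) from sham and -0.37 (SE 0.12, adjusted p = 0.0506) from day-7 TAC; without day-1 TAC replicate 1 they were -0.11 (adjusted p = 0.419) and -0.24 (adjusted p = 0.12). The difference from day-7 TAC passed without day-1 TAC replicate 3 (-0.45, adjusted p = 0.0473), with a stricter filter on low values (-0.37, 0.0467) and with a pseudocount of 1 (-0.36, 0.0497), and leaving out any single library it ran from -0.45 to -0.24 (adjusted p from 0.0473 to 0.154). The gene span of Sirt3 overlaps those of Ric8a and Psmd13 on the opposite strand, and overlap of exons was not examined. Part of the reads of Sirt3 may not be its own if exons overlap and strand was not used.

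Counted together, 1 of the 8 tested members rose and 3 fell after day-1 TAC, where 34.8% of all genes tested were called in either direction (14.3% higher, 20.5% lower). After day-7 TAC 2 rose and 1 fell, against 28.9% of all genes called (13.8% higher, 15.1% lower), and between the TAC groups 1 was lower, against 16.7% (6.42% higher, 10.3% lower). The groups did not overlap for 6 of the 8 after day-1 TAC (2 higher, 4 lower), where 48.0% of all genes had groups apart (20.3% higher, 27.7% lower). They did not overlap for 4 after day-7 TAC (3 higher, 1 lower), against 46.7% of genes (22.4% higher, 24.3% lower), and for 3 between the TAC groups (all lower), against 38.9% (15.6% higher, 23.3% lower). With 8 members these counts do not set the members apart from other genes. Their median log2 difference was -0.12, 0.07 and -0.15, beside -0.04, -0.01 and -0.03 over all genes tested.

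Of the other sirtuin genes Sirt2, Sirt4, Sirt5, Sirt6 and Sirt7, none was called after day-1 TAC, where their log2 differences ran from -0.20 to 0.11, and none between the TAC groups. Over all genes tested 34.8% and 16.7% were called in these comparisons. Sirt5, a mitochondrial desuccinylase, was lower after day-7 TAC (-0.32, SE 0.11, adjusted p = 0.0426), a call that was lost in 7 of 9 fits that left out a library. Whether the fall of Sirt1 differs from the change of another sirtuin was not tested.

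Among 6 tested genes listed around NAD synthesis, 3 were lower after day-1 TAC and 2 after day-7 TAC, and none was higher. Of all genes tested 20.5% and 15.1% were lower. Nadk2 acts on NAD already made, and kynurenine aminotransferases lie on a branch that does not lead to NAD, so no called gene of this list is a step to NAD. Besides Nadk2 the called genes were the kynurenine aminotransferase genes Kyat1, with -0.58 (SE 0.14, adjusted p = 0.00935) for day-1 TAC, and Kyat3, with -0.97 (SE 0.16, adjusted p = 0.00219) for day-7 TAC. Kyat3 also passed after day-1 TAC (-0.47, adjusted p = 0.0477), which was lost in 7 of 9 fits without a library, among them that without day-1 TAC replicate 1 (-0.36, adjusted p = 0.149). The list's median was -0.52 after day-1 TAC and -0.14 after day-7 TAC, beside -0.04 and -0.01 over all genes tested. Nmnat2 and Nadsyn1, whose enzymes make NAD itself or its acid form, were not called after day-1 TAC (adjusted p = 0.351 and 0.848) or after day-7 TAC (0.0594 and 0.58). Of the other genes listed for the tryptophan route, Kmo was tested and not called (-0.57 after day-1 TAC, adjusted p = 0.138), Haao, Ido1, Ido2 and Acmsd were below the filter, and Qprt, Kynu, Tdo2, Afmid and Aadat were not analysed here.

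Of 12 tested genes that handle or carry NAD precursors, 1 rose and 4 fell after day-1 TAC, and 1 rose and 3 fell after day-7 TAC. These were 41.7% and 33.3% called, beside 34.8% and 28.9% of all genes tested. Of the falls after day-1 TAC, Nt5e lost its call without replicate 1 of that group (-0.29, adjusted p = 0.128), and Slc25a51, the mitochondrial NAD carrier gene, without replicate 1 (-0.19, 0.0647) or 3 (-0.18, 0.0849). Nnmt, which methylates nicotinamide and so removes it from recycling, rose after day-1 TAC by 1.21 (SE 0.22, adjusted p = 0.00271), from 0.85, 0.78 and 1.41 to 2.54, 1.99 and 2.14. Aox1, an oxidase that acts on methylated nicotinamide, fell in both comparisons, with log2 differences of -1.52 (SE 0.31, adjusted p = 0.00425) after day-1 TAC and -2.04 (SE 0.31, adjusted p = 0.00122) after day-7 TAC. Nudt12, a hydrolase of NADH, fell as well (-0.86 and -0.60); its call after day-7 TAC was lost without sham replicate 1 or day-7 TAC replicate 1 or 2. The nucleoside transporter genes Slc29a1 and Slc29a2, whose products can carry nicotinamide riboside, were called only after day-7 TAC, at -0.35 and 0.76. Fibroblast markers, set beside Nnmt since fibroblasts express it, rose in 3 and fell in 1 of 8 after day-1 TAC (2 and 1 without replicate 1 of that group), and their summed linear level was 3330 to 4580 in sham and 4590 to 5780 after day-1 TAC; their part in the difference was not tested.

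Of 20 tested NAD-consuming enzymes other than sirtuins, 3 rose and 4 fell after day-1 TAC, and 1 rose and 3 fell after day-7 TAC. These were 35% and 20% called, beside 34.8% and 28.9% of all genes tested. Parp9, a member of the poly(ADP-ribose) polymerase family, rose by 0.79 (SE 0.09, adjusted p = 0.000351) and 0.52 (SE 0.09, adjusted p = 0.00303), and Parp3 rose by 0.52 after day-1 TAC. Cd38, the major NAD glycohydrolase, had 3.84, 4.02 and 3.88 in sham, 3.91, 3.98 and 3.87 after day-7 TAC and 4.35, 4.36 and 4.28 after day-1 TAC, and it rose after day-1 TAC by 0.42 (SE 0.09, adjusted p = 0.00507). Macrophage markers, set beside Cd38 since macrophages express it, rose in 3 of 8 and fell in none after day-1 TAC (1 rose without replicate 1, and 1 without replicate 3), and summed to 140 to 184 in sham, 114 to 149 after day-7 TAC and 157 to 224 after day-1 TAC; their part was not tested. Mono-ADP-ribosyltransferase genes were among those that fell. Art3 differed by -1.5 and -1.05 with day-1 and day-7 TAC, and Art5 by -1.38 and -2.30. Art5 was low, with 73 to 112 reads in sham, 26 to 47 after day-1 TAC and 16 to 25 after day-7 TAC. Art1 was called after day-7 TAC (-2.80, SE 0.27, adjusted p = 0.000159), where its 3 libraries were at 3.41, 3.24 and 4.34 against 6.33 to 6.58 in sham, and its difference after day-1 TAC was -0.55 (adjusted p = 0.132). Bst1, a paralogue of Cd38, was lower after day-1 TAC (-1.23, adjusted p = 0.0188), with 9 to 26 reads against 37 to 43 in sham. That call was lost without sham replicate 3 (adjusted p = 0.0553). Art4 was the other gene that fell after day-1 TAC, and its call was lost without replicate 1 of that group (-0.67, adjusted p = 0.0519) or replicate 3 (-0.64, 0.0633).

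Of 14 redox and shuttle enzymes that turn NAD(H) and NADP(H) over, 3 rose and 6 fell after day-1 TAC, and 2 rose and 7 fell after day-7 TAC. This was 64.3% called in each comparison, beside 34.8% and 28.9% of all genes tested. The list's medians were -0.21 and -0.22, beside -0.04 and -0.01 over all genes tested. The mitochondrial NADPH sources Nnt and Idh2 fell after day-1 TAC (-0.62, SE 0.11, adjusted p = 0.00202, and -0.68, SE 0.10, adjusted p = 0.000975). Me3, another such source, was not called (0.11, SE 0.08, adjusted p = 0.313). G6pdx and Pgd, of the cytosolic pentose phosphate route to NADPH, rose by 0.72 (SE 0.10, adjusted p = 0.000626) and 0.34 (SE 0.08, adjusted p = 0.0081), and Ldha, a lactate dehydrogenase subunit, by 0.56 (SE 0.09, adjusted p = 0.00128). The malate-aspartate shuttle genes Got1 and Got2 and the lactate dehydrogenase gene Ldhb fell after day-7 TAC (-0.40, -0.45 and -0.47) and after day-1 TAC (-0.29, -0.25 and -0.26). After day-1 TAC the call of Got2 was lost without replicate 1 of that group (-0.22, adjusted p = 0.0541) or replicate 3 (-0.23, 0.0574), and that of Ldhb without replicate 1 (-0.21, 0.0684). Mdh2, of the same shuttle, fell after day-7 TAC (-0.52). Gpd1l fell with both schedules (-0.55 and -0.38). Genes of the glycerol phosphate shuttle went opposite ways after day-7 TAC: Gpd2 rose by 0.46, and Gpd1 was lower (-0.56, SE 0.13, adjusted p = 0.00878). Over the 5 lists together 24 of 57 tested genes were called after day-1 TAC (42.1%), 20 after day-7 TAC (35.1%) and 15 between the TAC groups (26.3%), beside 34.8%, 28.9% and 16.7% of all genes tested. Without day-1 TAC replicate 1 the first count was 18, and without replicate 3 it was 22.

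**Figure D4:**
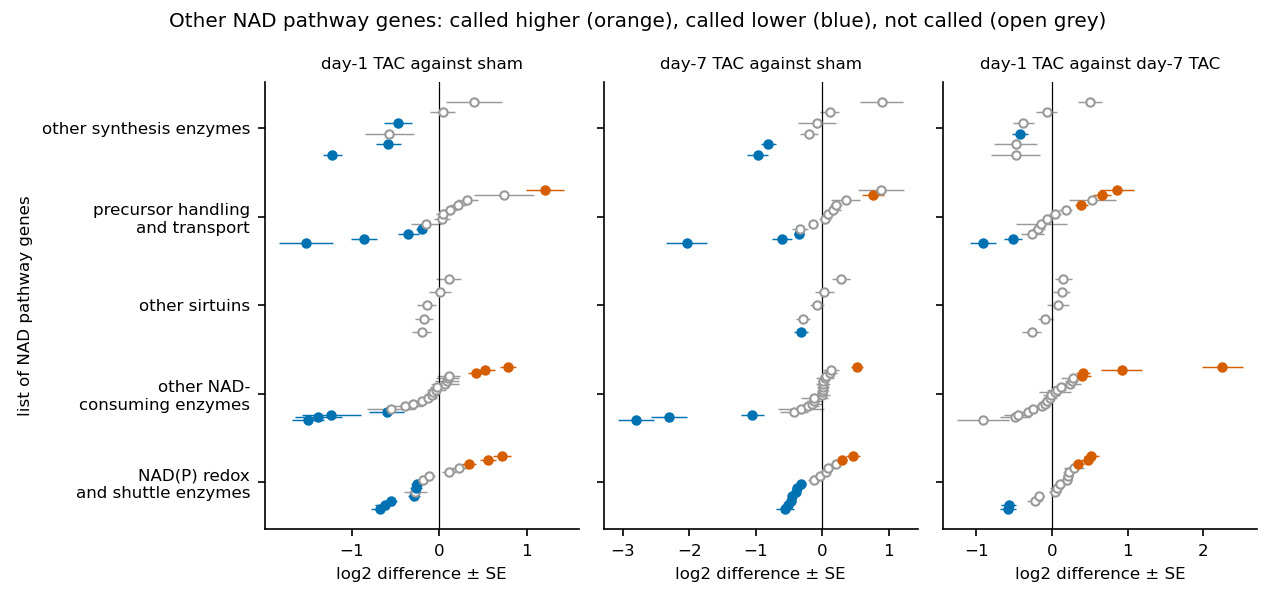
Log2 difference ± SE (horizontal axis) of each tested gene of the 5 lists of other NAD pathway genes, by list (vertical axis) and comparison (panels); orange points were called higher, blue points called lower and open grey points were not called at an adjusted p under 0.05. In the NAD(P) redox and shuttle list 6 of 14 genes were lower after day-1 TAC and 7 after day-7 TAC, where 20.5% and 15.1% of all genes tested were lower. Art1 stands out between the TAC groups at 2.25.

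Across the 9 libraries the genes whose log2 values followed Nmrk2 most closely, by Pearson's r over 10591 named genes with a mean of at least 2, were Sergef (0.988), Timp1 (0.984), Clic1 (0.983), Msra (0.981) and Tpm2 (0.979). Timp1 encodes an inhibitor of metalloproteinases, Msra a methionine sulfoxide reductase and Tpm2 a beta-tropomyosin. Tpm2 went from 5.56 ± 0.19 in sham to 7.12 ± 0.33 after day-7 TAC and 8.19 ± 0.61 after day-1 TAC (SD, n = 3), so its steps were smaller than those of Nmrk2. For Nampt they were Nt5c3 (0.982), Nexn (0.976), Rdh14 (0.974), Rab12 (0.974) and Tmtc1 (0.973). Nt5c3, a pyrimidine nucleotidase gene, had 6.65 ± 0.47 in sham, 5.51 ± 0.11 after day-7 TAC and 5.81 ± 0.04 after day-1 TAC. The 9 libraries fall into 3 groups and were scaled together, and the part of the group means in these values was not tested. By rank correlation 1 of the 5 genes stayed among the closest in each case, Sergef and Rab12.

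Nmrk2 is also a gene of skeletal muscle, so the skeletal muscle markers are given with it. Of 15 listed, 12 have values and 4 were tested. Of the 4, 2 were higher and 1 lower after day-1 TAC, beside 14.3% and 20.5% of all genes tested. After day-7 TAC 3 were higher and 1 lower, beside 13.8% and 15.1%. Myh8, 1 of the 4, had -1.15, -1.22 and -1.68 in sham on the log2 scale. It passed the filter only through TAC libraries, which favours a rise. The summed linear level of the 12 was 30.9 to 33.2 in sham, 76.8 to 97.2 after day-7 TAC and 118 to 134 after day-1 TAC, the same order as Nmrk2. Most of it was Mybpc2, at 4.35 to 4.54, 6.05 to 6.44 and 6.75 to 7.00 on the log2 scale. Of the other 11, Myh8 had 6 to 11 reads in sham and 15 to 27 after TAC. Tnnt3 had 34 to 52 reads in sham, 75 to 104 after day-7 TAC and 32 to 60 after day-1 TAC. Tnni2 went the other way, with 87 to 100 reads in sham, 23 to 35 after day-7 TAC and 31 to 47 after day-1 TAC. Myh2 and Myh4 had at most 23, and Actn3, Atp2a1, Myh1, Myh3, Mylpf and Pvalb at most 20 in each of the 9 libraries. The ventricular cardiomyocyte markers summed to 115000 to 126000 in sham, 94700 to 102000 after day-7 TAC and 79000 to 103000 after day-1 TAC. In each comparison with sham 2 of 8 were lower and none higher. Of all genes tested 20.5% were lower after day-1 TAC and 15.1% after day-7 TAC. Without day-1 TAC replicate 1, the library at 79000, 1 of these markers was lower after day-1 TAC.

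Neutrophils are rich in Nampt, so their markers are given with it. Of 8 tested, 5 were higher after day-1 TAC and 8 after day-7 TAC, beside 14.3% and 13.8% of all genes tested. The 9 listed summed to 2.34 to 4.44 in sham and 32.8 to 72.7 after day-7 TAC. After day-1 TAC the sums were 7.57, 9.54 and 34.1 in replicates 1, 2 and 3. In sham 7 of the 9 had at most 20 reads in each library. All tested markers except S100a9 lay below a log2 value of 0 in every sham library. Those markers passed the filter only through TAC libraries, so the filter favoured a rise in these counts. Without day-1 TAC replicate 3, the library with the high Xist value, 4 of 8 were higher. The part of these cells in the level of Nampt was not tested.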

How the data were processed

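Messenger RNA of 9 left ventricle samples, 3 per group, was sequenced from ScriptSeq v2 libraries (labels' protocols). The submitters' processing notes name Trim Galore, STAR, edgeR and the build mm10. Tool versions, annotation, strand setting and the handling of multiply mapped reads were not given in the sources used here. Log2 values were deposited by the authors, TMM-scaled per the file headers. Of 16710 rows, 12 of 3 repeated symbols were left out. Taken out of the log, 100% of values were whole multiples of the library's lowest value within 0.001; had 1 read been added as a pseudocount, each read number would be 1 lower. Since the deposited values are log2 and not counts, limma 3.58.1 (R 4.3.3, intensity trend) was run on 13712 genes above 0 in at least 3 libraries, over all 9 libraries. P-values were two-sided, adjusted by Benjamini-Hochberg over all genes tested, and called under 0.05. The steps were tested on simulated data.

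Members and lists were chosen with earlier results of these data known. Named were all members, called list genes (at most 6 per list and comparison, smallest p first), the 5 genes closest in pattern to Nmrk2 and to Nampt, the genes beside or across Nmrk2, and the highest and lowest markers of a list. The other atrial and skeletal markers, Got1, Got2 and Ldhb after day-1 TAC, Art4, Kmo, Nmnat2, Nadsyn1, Gpd1 and Me3 were named after their values were seen. Leaving out day-1 TAC replicates for marker counts was also decided then. Lengths and coordinates are GENCODE M21 on GRCm38; promoters are RefSeq, matched for 8 of 9 members. The header gives 2 sham columns the same name, so their numbers 2 and 3 pair nothing. Alternatives were other scalings, filters, a pseudocount of 1, array weights, only 2 groups, no trend, a replicate block and each library left out.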

Additional observations from a re-analysis of the deposited data

Results flagged for a closer look

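Each gene below differed between the TAC groups by a direct test of day-1 against day-7 TAC (limma, adjusted p under 0.05), which is also the test of whether their differences from sham differ. Among the members this was Sirt1, at -0.41 (SE 0.07, adjusted p = 0.00486), with each day-1 TAC library below each day-7 TAC library. Nmrk2 was not tested.

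Among other genes of the pathway, Nadk2 differed by -0.42 and Nt5e, an ectonucleotidase gene, by -0.51; Nadk2 lost its call without any one day-7 TAC library, and Nt5e without day-7 TAC replicate 1 or day-1 TAC replicate 1. Pnp, a purine nucleoside phosphorylase gene, differed by 0.66, Slc29a1 by 0.39 and Slc29a2 by -0.91. Nnmt differed by 0.86, which was lost without any one day-7 TAC library or day-1 TAC replicate 1 or 3. Cd38 differed by 0.41 and Art1 by 2.25. Parp3 (0.40) and Art5 (0.92) lost their calls in 5 and 6 of 9 fits without a library. Of the redox genes, Nnt differed by -0.58, Idh2 by -0.57, Ldha by 0.47 and G6pdx by 0.52, and Mdh2 by 0.34, the last lost in 4 of 9 such fits.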

How the results depend on the processing

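For the 8 tested members, 416 of the differences computed under alternatives kept direction and side of the threshold, 4 lost a call (all Nmrk1 with day-1 TAC), 6 gained one (Nadk with day-1 TAC, Sirt3 between TAC groups) and 14 changed sign. The sign changes were all of uncalled differences near 0: Nmnat3 between TAC groups was 0.02 scaled to the same sum, 0.01 by the median of ratios and 0.10 with array weights, and -0.19 to 0.12 leaving out a library; Sirt1 with day-7 TAC was 0.00 by quantiles and -0.01 to 0.03 leaving out a library; with day-1 TAC, Nmnat1 ran from -0.08 to 0.11 and Naprt from -0.03 to 0.15 leaving out a library. Members called between TAC groups numbered 2 in place of 1 with the stricter filter and with a pseudocount of 1, and 1 to 2 leaving out a library. Genes called ran from 1261 to 2491 between TAC groups and from 2594 to 4404 with day-7 TAC leaving out a library. The 6 TAC libraries share replicate numbers, and the labels give no pairing. Deviations from the group mean correlated at -0.22, -0.11 and -0.04 for same numbers, and from -0.17 to 0.23 for different numbers. With 3 libraries a group this shows no pairing and cannot exclude one. With the replicate block 1167 genes and 8 list genes were called between TAC groups, against 2287 and 15, and Sirt1 kept its call. Spearman correlation kept 1 gene in each likeness set. The longest transcript gave Nmrk2 over Nmrk1 ratios of 0.144, 2.07 and 10.5. Nmrk2 was 2.95 with day-7 TAC and 4.87 with day-1 TAC with a pseudocount of 1. Calls with day-1 TAC were 41.1% higher as deposited and 60.1% scaled to the same sum, and between TAC groups 38.5% and 50.2%; with day-7 TAC 47.7% and 59.7%. That scaling moved the median of all genes from -0.04 to 0.06 with day-1 TAC. The cause of these shifts was not tested.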
